A study of Mus musculus with 8 samples.

Results

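Oligodendrocyte precursor cells of the dentate gyrus were split by whether a reporter had been recombined in cells that expressed Ki67, and the 2 sets of cells were compared within experiments. A barcode was taken as a precursor when it held over 500 genes and under 10% mitochondrial UMIs (unique molecular identifiers, each counting 1 captured RNA molecule), at least 3 of Pdgfra, Cspg4, Lhfpl3, C1ql1 and Cacng4, at most 1 of 5 oligodendrocyte genes (Mog, Mag, Mobp, Opalin, Cldn11) and at most 1 of 6 genes of other cells (Cx3cr1, Cldn5, Gja1, Stmn2, Eomes, Neurod1). By this rule 6104 of 26036 barcodes were precursors. Of these, 285 were recombined, with more than 1 UMI of the reporter elements WPRE and bGHpolyA (more than 2 with Version 3 chemistry), 4894 had none and were unrecombined, and 925 lay between these limits. The cells were thus chosen by their WPRE and bGHpolyA UMIs and by the listed marker genes, so the WPRE and bGHpolyA values are a description of the choice. Recombined and unrecombined name these UMI limits alone.

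All cells came from Ki67TD-NES mice, which were heterozygous for Ki67-creERT2, Nestin-GFP and a tdTomato Cre reporter on a mixed C57BL/6J and CD1 background. Every mouse received tamoxifen for 6 days and was culled on day 8, so both cell groups were exposed to it and no mice without tamoxifen or Cre were compared. The data comprised 8 libraries from 7 experiments, 1 at 1 month, 3 at 2 months and 3 labelled 6 months (6-8 months in the study's methods), and each experiment pooled several mice of both sexes. Cells were sorted on Nestin-GFP and tdTomato, with 1 library of the first 2-month experiment labelled GFP+tdT+ and GFP-tdT- and the other GFP+tdT-. The 2-month libraries were made with Version 2 chemistry and all others with Version 3, so age and chemistry cannot be told apart there. Median UMIs per barcode ran from 1960 to 7637 across libraries, and 59 barcode sequences occurred in 2 or more libraries, 20 of the precursors carrying one of them.

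Oligodendrocyte precursors are the dividing glial progenitors of the adult brain. They carry the PDGF receptor alpha, tile the tissue, and either renew themselves or differentiate into myelinating oligodendrocytes. In these mice the recombinase is made by cells in the cell cycle, and once the floxed stop of the reporter has been removed the change is inherited, so that reporter transcripts ending in WPRE and the bovine growth hormone polyadenylation signal are meant to mark cells that divided under tamoxifen and their progeny. The element tdTomatoLoxP reads the floxed sequence of the intact reporter locus, and eGFP reads the Nestin-GFP transgene.

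The recombined share of precursors was 6.80% at 1 month (53 of 779 cells, 95% Clopper-Pearson interval 5.14% to 8.81%). At 2 months it was 5.36% (21 of 392), 1.52% (3 of 197) and 8.88% (45 of 507), and at 6-8 months 7.75% (11 of 142), 2.4% (39 of 1625) and 4.59% (113 of 2462). These shares were set by the sorts as well as by the cells. In the 2 sorted libraries of the first 2-month experiment, 40.0% of 40 precursors and 1.42% of 352 were recombined. As a background, myelinating oligodendrocytes, taken as cells with at least 3 of the 5 oligodendrocyte genes and no precursor gene, passed the same limit in 1.49% of 6427 cells at a median of 4501 UMIs, against 4.67% of all precursors at a median of 6846. Microglia, taken as cells with at least 3 microglia genes and no precursor gene, passed it in 4.50% of 734 cells at a median of 2926 UMIs, close to the share of the precursors. In the first 6-8-month experiment 22.6% of 31 microglia passed, against 7.75% of precursors, and 679 of the microglia came from the first 2-month experiment, where 3.24% passed.

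The second 2-month experiment, at 1.52% of precursors against 1.84% of myelinating oligodendrocytes, lay at background and was left out of every comparison because it held fewer than 5 recombined cells. In the second 6-8-month experiment the interval of the precursors (1.71% to 3.27%) overlapped that of the myelinating cells (0.685% to 2.43%), whereas in the third (3.8% to 5.49% against 1.74% to 3.75%) it did not. Intervals cover counting error alone. The 6 experiments compared held 282 recombined and 4720 unrecombined precursors. The experiment is the replicate throughout. The p-values of the sign-flip tests used below measure the spread between experiments. Those of edgeR, and its SEs, rest on a dispersion that borrows from all genes. They can therefore understate how far 1 gene varied between experiments.

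Transcripts of the intact reporter locus were lower in the summed recombined precursors of 6 of 6 experiments, but in 1 of them, the first 2-month experiment, not within its libraries. In CPM (UMIs per 1000000 UMIs in the summed cells of a group), tdTomatoLoxP was lowest at 362, had a median of 1152 and was highest at 1729 in recombined cells, against 1336, 2131 and 2654 in unrecombined cells. The ranges of the groups overlapped across experiments. In the first 2-month experiment the sums of 820 and 1588 CPM mix libraries in unequal parts, since 16 of 21 recombined cells came from the library labelled GFP+tdT+ and GFP-tdT- and 333 of 350 unrecombined cells from the other. Within these libraries tdTomatoLoxP was higher in recombined cells, at 462 against 416 CPM in the former (16 and 17 cells) and 1795 against 1640 CPM in the latter (5 and 333 cells). The log2 fold change was -0.79 (SE 0.08, adjusted p = 4.83e-11 in edgeR's quasi-likelihood test), which is 1.73-fold lower. The exact two-sided sign-flip test over experiments on log2(CPM + 10) gave a mean difference of -0.96 (SD 0.48, n = 6, p = 0.0312, the smallest that 6 pairs allow, and 0.0938 after adjustment over 6 such tests). With the first 2-month experiment taken from its first library alone, a choice made after seeing the data, the locus was lower in 5 of 6 experiments, with a mean difference of -0.78 (SD 0.66, exact p = 0.0625), and the edgeR estimate was -0.75 (adjusted p = 1.86e-11). At least 1 UMI of it was held by 83.0% of recombined precursors and by 97.0% of unrecombined ones.

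**Figure D1:**
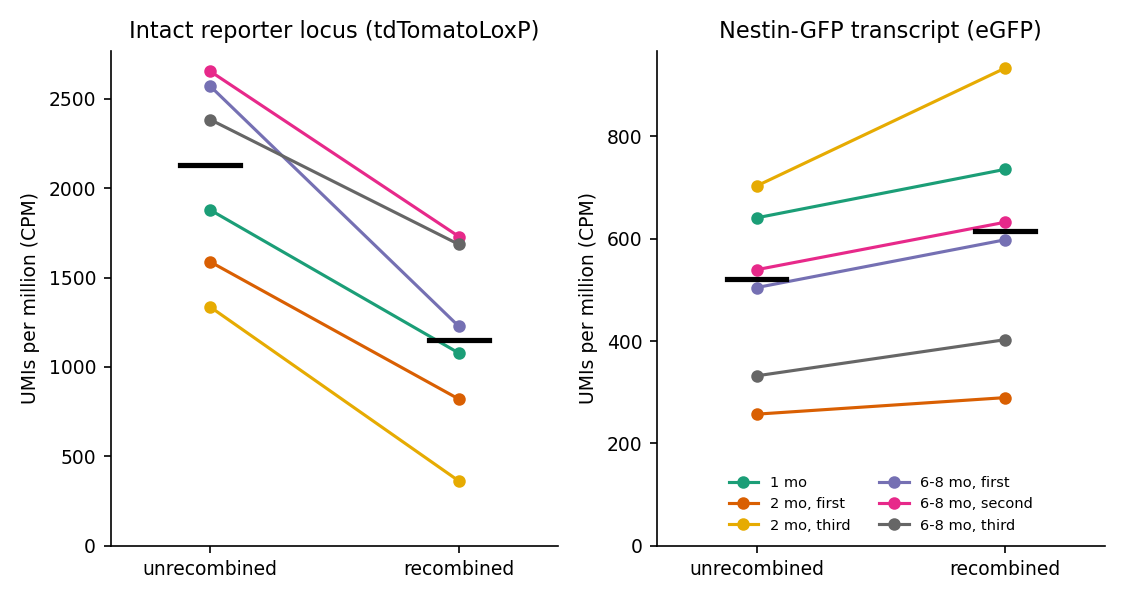
CPM of tdTomatoLoxP (left) and eGFP (right) in unrecombined and recombined precursors; each line is 1 of 6 experiments and each black bar the median of a group. The sums of the intact locus fall in every line, to between 362 and 1729 CPM, and those of eGFP rise, but the first 2-month line joins libraries in unequal parts and its fall is not seen within them.

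How the intact locus varied with the number of reporter UMIs differed between libraries. In all Version 2 cells together, those with 0, 1, 2 and 3 to 8 reporter UMIs held a mean of 3.03, 1.96, 1.48 and 0.741 tdTomatoLoxP UMIs (934, 93, 42 and 27 cells), but these bins pool libraries with different levels. In the third 2-month experiment the means fell from 2.64 at 0 (410 cells) over 1.87 at 1, 0.821 at 2 and 0.714 at 3 to 0.3 at 4 or more (10 cells). In the 2 libraries of the first they did not fall, at 0.941 (17 cells), 0.143 (7) and 1.29 (7) in one and 4.31 (333), 4.5 (14) and 6.0 (5) in the other for 0, 1 and 2 reporter UMIs. In Version 3 cells the mean was 17.7 at 0 reporter UMIs (3960 cells), 20.7 at 2 (181 cells, just outside the limit) and 17.3 at 3 (53 cells, just inside it), and it lay between 8.87 and 12.9 in cells with 4 or more. Cells just inside the Version 3 limit held about as many intact-locus UMIs as unrecombined cells. Per Version 3 experiment, recombined cells held a mean of 7.27 to 14.4 such UMIs and unrecombined cells 11.7 to 19.4. The mice were heterozygous for the reporter, so the name recombined stands for the UMI limit. It does not mean that each cell was shown to have lost the intact locus. In each of the 4 Version 3 libraries the mean was lower at 4 or more reporter UMIs than at 0, at 8.38 against 12.5 at 1 month and at 7.17 against 11.7, 11.3 against 18.1 and 12.1 against 19.4 at 6-8 months. In the third 2-month experiment 68.9% of recombined and 12.7% of unrecombined precursors had no tdTomatoLoxP UMI, whereas in the third 6-8-month experiment the shares were 0.885% and 1.06%, at a median of 7737 UMIs per recombined cell against 1901.

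**Figure D2:**
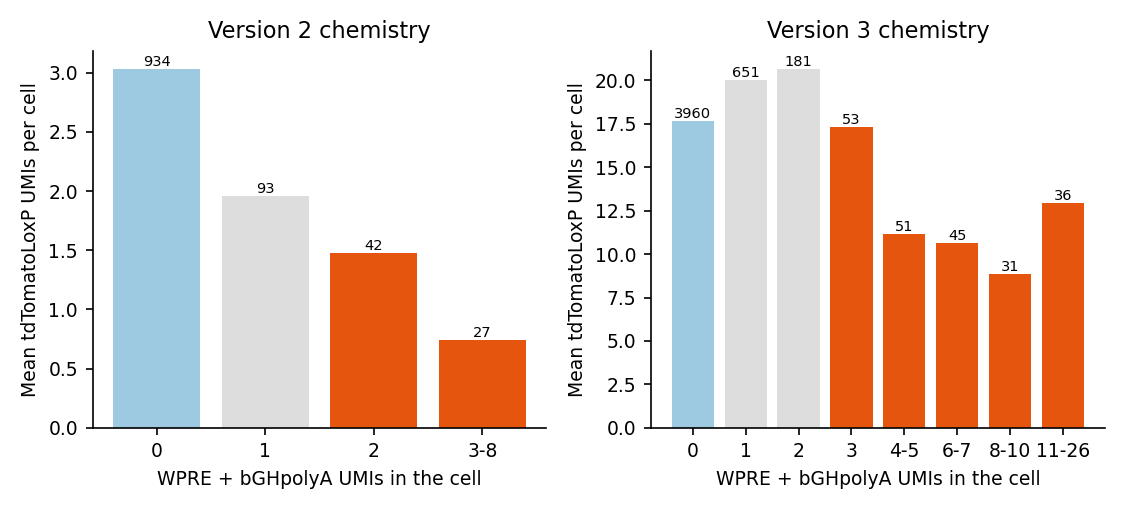
Mean tdTomatoLoxP UMIs per precursor (vertical axis) by the number of WPRE and bGHpolyA UMIs in the cell, for all 7 experiments; blue bars are unrecombined cells, grey bars lie between the limits, orange bars are recombined, and the number of cells stands above each bar. The Version 2 bars step down from 3.03 to 0.741 but pool 4 libraries, of which the 2 of the first 2-month experiment show no such steps, and the Version 3 bars are lower from 4 reporter UMIs on.

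The Nestin-GFP transcript was higher in the summed recombined precursors of 6 of 6 experiments. eGFP ran from 289 over a median of 615 to 934 CPM in recombined and from 257 over 522 to 703 CPM in unrecombined cells, so the groups overlapped across experiments. Within the libraries of the first 2-month experiment it was 330 against 156 CPM in one and 180 against 261 CPM in the other. The former is labelled GFP+tdT+ and GFP-tdT-, so by its label the tdT- cells there were sorted as GFP-. All libraries were sorted on Nestin-GFP, so eGFP levels were in part set by the sorts. The log2 fold change was 0.26 (SE 0.07, adjusted p = 0.0419, edgeR), a 1.19-fold rise that was called in 1 of the 6 fits with an experiment left out. The exact two-sided sign-flip test, on the log2 scale used for the intact locus, gave a mean difference of 0.25 (SD 0.08, p = 0.03125). Its adjusted p was 0.09375, so eGFP did not pass that test after adjustment. In cells matched on total UMIs, edgeR did not call eGFP (log2 fold change 0.18, adjusted p = 0.805). With recombined cells limited to those with few intact-locus UMIs (under 4, or under 8 with Version 3), eGFP was not called (log2 fold change -0.24, adjusted p = 0.739). Such a limit on the intact locus is part of the study's own definition of tdTomato+ cells. It left 7 to 43 recombined cells per experiment. At 1 month 31 of 53 remained, and at 2 months 15 of 21 and 43 of 45. At 6-8 months 7 of 11, 12 of 39 and 39 of 113 remained. The other recombined cells do not meet this part of the study's definition. As used here it caps UMIs in recombined cells alone, so the groups are then selected differently.

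Recombined and unrecombined precursors were alike in median depth within what 6 pairs can show. The median log2 total UMIs per cell was 12.17 in recombined and 12.12 in unrecombined cells (mean of experiments, difference 0.05 ± 0.13 SD, exact sign-flip p = 0.469, adjusted 0.703). The mean log2 total UMIs was higher in recombined cells in every experiment but the third at 2 months (10.85 against 10.90). It was 12.93 against 12.60 at 1 month and 12.47 against 12.06 in the first 6-8-month experiment. Thinned to 1000 UMIs, the cells held a median of 743 and 745 genes (difference -1.83 ± 5.31, exact p = 0.625, adjusted 0.750). Mitochondrial UMIs made up 3.24% and 3.41% (difference -0.17 ± 0.30, exact p = 0.250, adjusted 0.500).

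No difference in the share of dividing cells was detectable between the groups at the limits of the rule. A cell was called dividing when, thinned to 1000 UMIs, it held at least 3 of 49 genes of the G1/S and G2/M phases. The recombined shares were 7.55% (4 cells) at 1 month, 0 of 21 and 0 of 45 cells at 2 months, which allow up to 14.3% and 6.67%, and 9.09% (1 cell), 2.56% (1 cell) and 3.54% (4 cells) at 6-8 months. The unrecombined shares were 7.87%, 2.87%, 3.47%, 1.85%, 3.06% and 5.43% in the same order. The recombined share was lower in 5 of 6 experiments, with a mean difference of -0.30 percentage points (SD 3.90, exact sign-flip p = 0.906, adjusted 0.906). Without thinning, at 5 of the 49 genes, the third 6-8-month experiment had 12.4% dividing among recombined and 20.1% among unrecombined cells, and the 1-month experiment 24.5% and 21.4%. The summed level of 24 G2/M genes was higher in recombined cells in the 3 largest Version 3 experiments, at 1178 against 604 CPM at 1 month and 889 against 326 and 853 against 346 CPM in the second and the third at 6-8 months. It was lower in the other 3, at 32.2 against 293 and 70.0 against 115 CPM at 2 months and 15.3 against 40.7 CPM in the first at 6-8 months. The recombined groups with higher sums held 4, 1 and 4 dividing cells by the thinned measure, so few cells can set these sums. Those with lower sums had 62193, 85686 and 65216 UMIs in all, so their G2/M levels rest on few UMIs.

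Genes were tested when 20% or more of the recombined or of the unrecombined cells held a UMI of them. A gene near this limit can thus enter the test only through the group where it is higher. Of 5718 such genes, 75 (1.31%) were called, of which 59 were higher and 16 lower in recombined precursors (edgeR, adjusted p under 0.05). These are 1.03% and 0.28% of the genes tested, and 580 genes (10.1%) had an unadjusted p under 0.05. The direction was the same in every experiment for 6.02% of the genes, and the ranges of the groups did not overlap for 0.21%. The experiment stood in the model as a block, since both sums of an experiment come from the same mice. Without that block no gene was called and 74 had an unadjusted p under 0.05, so the calls rest on the pairing. Cells matched one to one on total UMIs, which leaves as many unrecombined as recombined cells, gave 6 genes higher and 4 lower. Fewer cells of a type and less RNA per cell cannot be told apart in such sums.

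Several immediate early genes were higher in recombined precursors, among them Junb and Fos, the 2 genes with the lowest adjusted p. These genes encode short-lived transcription factors and feedback regulators that are transcribed within minutes of growth factor or other stimulation. Before capture the tissue was digested with enzymes, triturated and sorted, and cells of both groups went through these steps. The part of these steps in immediate early levels was not tested. Of 19 genes in the list of immediate early and stress genes, 11 were tested, 7 were called higher, none was called lower and all 11 estimates lay above 0. Their median log2 fold change was 0.56, beside 0.0008 over all genes tested. The called members were Junb, Fos, Jun, Jund, Dusp1, Klf6 and Ier2.

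Junb, a subunit of the AP-1 transcription factor, ran from 65.3 over a median of 189 to 506 CPM in recombined cells and from 34.6 over 61.2 to 170 CPM in unrecombined cells. It was higher in 6 of 6 experiments, by a log2 fold change of 1.20 (SE 0.11, adjusted p = 7.67e-12, edgeR). Fos, the partner of Jun in AP-1, ran from 200.3 over 651 to 1258 CPM against 170 over 284 to 525 CPM. It too was higher in 6 of 6 experiments, with a log2 fold change of 0.94 (SE 0.09, adjusted p = 1.1e-11). Junb was detected in 34.4% of recombined and 25.8% of unrecombined cells, and Fos in 47.5% and 40.9%. A single cell gave 10.3% of the Junb UMIs and a single cell 8.61% of the Fos UMIs of recombined precursors. For both genes the ranges overlapped: the second 6-8-month experiment had the highest value of both groups, at 506 and 170 CPM for Junb, and the 1-month experiment the lowest recombined value.

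Jun was higher in 6 of 6 experiments (642, 854 and 2081 CPM as lowest, median and highest, against 359, 628 and 1123), with a log2 fold change of 0.57 (SE 0.08). Dusp1, a phosphatase that switches off MAP kinases, was higher in 5 of 6 (30.7, 80.2 and 187 CPM against 32.5, 46.9 and 56.6), with a log2 fold change of 0.79 (SE 0.16, adjusted p = 0.00113). Its levels in the 1-month and the first 6-8-month experiment were nearly equal in both groups. The smaller changes of Jund (0.43), Klf6 (0.46) and Ier2 (0.59) held in 5, 4 and 4 of 6 experiments, and 1 cell gave 20.8% of the Ier2 UMIs of recombined precursors. Under the limit on the intact locus, which selects recombined cells alone, Junb (0.76, adjusted p = 0.0361) and Fos (0.84, adjusted p = 0.00013) were called and Dusp1 (0.59, adjusted p = 0.638) and Ier2 (-0.07, adjusted p = 0.993) were not. The members that did not pass were Cyr61 (0.56, adjusted p = 0.0668), Fosb (0.44, adjusted p = 0.250), Nr4a1 (0.09, adjusted p = 0.915) and Ier3 (0.04, adjusted p = 0.973).

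Cells between the reporter limits had intermediate values in several experiments. Fos was above the unrecombined level in these cells in 6 of 6 experiments, and the recombined level was above theirs in 4 of 6. For Junb the counts were 5 and 5, for Jun 6 and 3. The between-limit cells were no part of any fit.

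**Figure D3:**
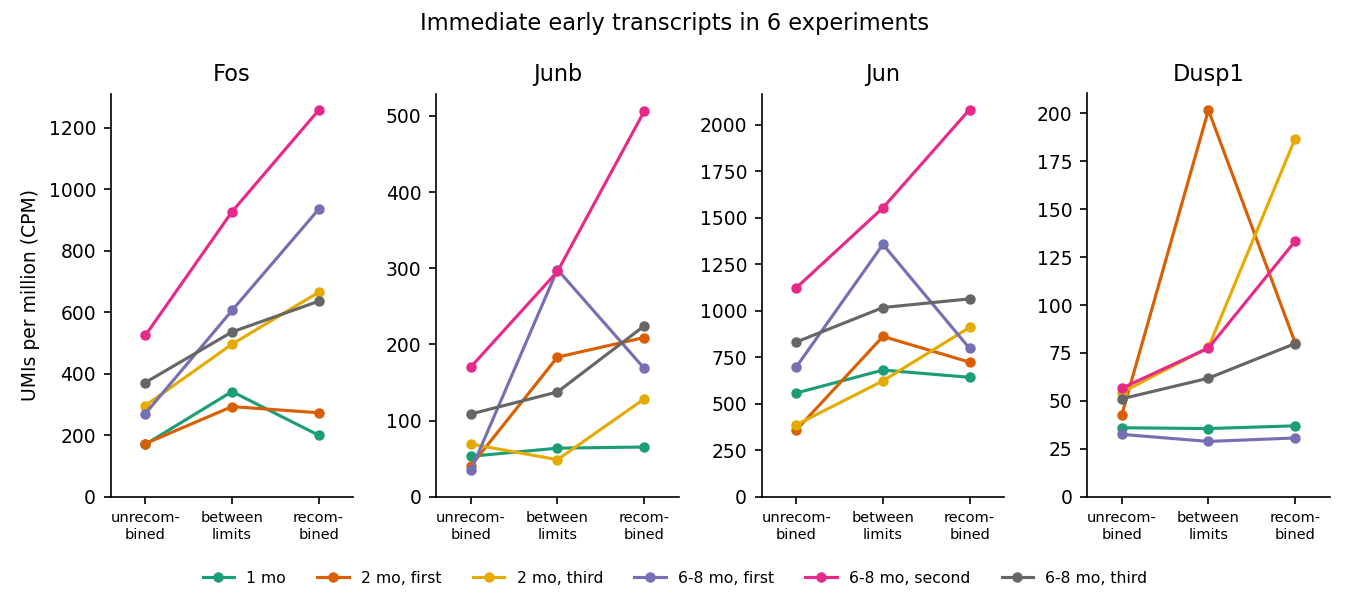
CPM of Fos, Junb, Jun and Dusp1 (vertical axes, each from 0) in unrecombined precursors, in precursors between the reporter limits and in recombined precursors; each line is 1 of 6 experiments. Fos, Junb and Jun end higher than they start in all 6 lines, and Dusp1 in 5.

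The promoters of 4 of these genes are shown, of which Fos, Junb and Jun were higher in 6 of 6 experiments and Dusp1 in 5. Jund, also higher in 5, is not shown, so these 4 are a choice among the called genes. The 250 bases before the RefSeq start are given 5′ to 3′ (GRCm38.p6), and capitals mark the cAMP response element, TGACGTCA, or its shorter form TGACG on the strand shown or as its reverse complement.
Fos, chr12:85473640-85473889, plus strand: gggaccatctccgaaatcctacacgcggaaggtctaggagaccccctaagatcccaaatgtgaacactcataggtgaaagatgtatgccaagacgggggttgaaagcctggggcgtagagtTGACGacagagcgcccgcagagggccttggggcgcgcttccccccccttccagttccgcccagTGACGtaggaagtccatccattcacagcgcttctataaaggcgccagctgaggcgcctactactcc
Junb, chr8:84978749-84978998, minus strand: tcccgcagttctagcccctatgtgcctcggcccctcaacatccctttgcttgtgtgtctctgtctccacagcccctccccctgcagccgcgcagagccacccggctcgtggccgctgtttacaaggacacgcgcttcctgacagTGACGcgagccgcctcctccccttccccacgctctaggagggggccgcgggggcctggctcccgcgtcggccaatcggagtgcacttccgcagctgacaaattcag
Dusp1, chr17:26508473-26508722, minus strand: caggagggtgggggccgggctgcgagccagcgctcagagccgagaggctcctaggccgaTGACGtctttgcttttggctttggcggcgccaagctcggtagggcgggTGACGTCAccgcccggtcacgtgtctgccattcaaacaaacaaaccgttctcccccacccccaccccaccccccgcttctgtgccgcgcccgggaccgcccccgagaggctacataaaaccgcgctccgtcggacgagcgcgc
Jun, chr4:95052223-95052472, minus strand: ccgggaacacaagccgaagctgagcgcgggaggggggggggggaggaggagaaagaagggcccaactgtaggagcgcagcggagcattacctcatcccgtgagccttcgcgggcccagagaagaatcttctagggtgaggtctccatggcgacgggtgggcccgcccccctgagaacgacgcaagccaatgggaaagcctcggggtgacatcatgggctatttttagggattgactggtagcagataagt
The full element was found in Dusp1 and in 1.77% of the 27025 genes with a promoter in the table, and the shorter form in Fos, Junb and Dusp1 and in 19.8% of genes. In Fos these began 129 and 66 bases before the start. No AP-1 site (TGAGTCA or TGACTCA) and no CArG box (the serum response element core) lay in these windows of the 6 called genes found in the table, Jun, Jund, Junb, Fos, Klf6 and Dusp1. They occur in 5.16% and 1.62% of genes. In the GRCm38 gene annotation (GENCODE M21) Fos lies on chromosome 12 at 85473890 to 85477273 and Junb on chromosome 8 at 84974484 to 84978718. Jund starts there at 70698949 on chromosome 8, whereas its window ended at 70697738, so that window does not adjoin the annotated start. The window of Junb, on the minus strand, begins at 84978749, so it does not adjoin the annotated start at 84978718 either. Dusp1 reaches there from 26505590 to 26562128 on chromosome 17, so its window lies inside the annotated gene.

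Chromatin and tubulin genes of dividing cells were also called, some of them on the UMIs of few cells. Of 20 chromatin and tubulin genes of dividing cells, 19 were tested, 7 were called higher and none lower (median log2 fold change 0.20). Hmgb2, a chromatin protein abundant in dividing cells, was higher in 4 of 6 experiments (46.7, 322 and 417 CPM against 52.9, 151 and 236), with a log2 fold change of 0.99 (SE 0.12, adjusted p = 1.38e-08). In the third 6-8-month experiment 1 cell held 230 of the 402 Hmgb2 UMIs of recombined precursors, and over all experiments 1 cell held 34.1%. For Hmgn2, a nucleosome-binding protein that was higher in 6 of 6 experiments (log2 fold change 0.71, SE 0.11), 1 cell held 27.3% of the UMIs, for Stmn1, a tubulin-binding protein (0.63, SE 0.11), 21.5%. With the limit on the intact locus none of the recombined cells in any experiment was dividing by the thinned measure, against 1.85% to 7.87% of the unrecombined cells, to which it does not apply. Under that unequal selection Hmgb2 was called lower (-1.08, adjusted p = 0.000687), as was Stmn1 (-1.25, adjusted p = 5.52e-06), and Hmgn2 stood at -0.17 (adjusted p = 0.921). With a higher reporter limit Hmgb2 stood at -0.06 and Stmn1 at -0.13.

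The tubulins Tubb4b and Tubb5, which build microtubules, had at most 15.7% of their recombined UMIs in 1 cell. Tubb4b ran from 46.7 over 240 to 455 CPM in recombined and from 48.1 over 156 to 284 CPM in unrecombined cells, and was higher in 4 of 6 experiments (log2 fold change 0.84, SE 0.09, adjusted p = 1.75e-10). Tubb5 was higher in 5 of 6 (0.47, SE 0.08, adjusted p = 3.07e-05). Tuba1a, which is not in the list, was higher in 6 of 6 (0.35, SE 0.07, adjusted p = 0.00113).

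Of 9 tested cyclins, Cdks and inhibitors 1 was called, Ccnd2, the cyclin D2 of G1 (1.18, SE 0.19, adjusted p = 3.4e-05). Ccnd2 passed the filter through the recombined group alone, detected in 20.9% of its cells against 16.7% of unrecombined cells, so its entry depended on the contrast. It was higher in 4 of 6 experiments, and 1 cell gave 63 of the 134 UMIs of the third 6-8-month experiment, without which it was not called (0.67, adjusted p = 0.396). Ccnd1, cyclin D1, stood at 0.05 (SE 0.08, adjusted p = 0.883). None of the 4 tested G1/S genes was called (median -0.06, Pcna at -0.42 with adjusted p = 0.339), and no G2/M gene of 24 was in enough cells to be tested.

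**Figure D4:**
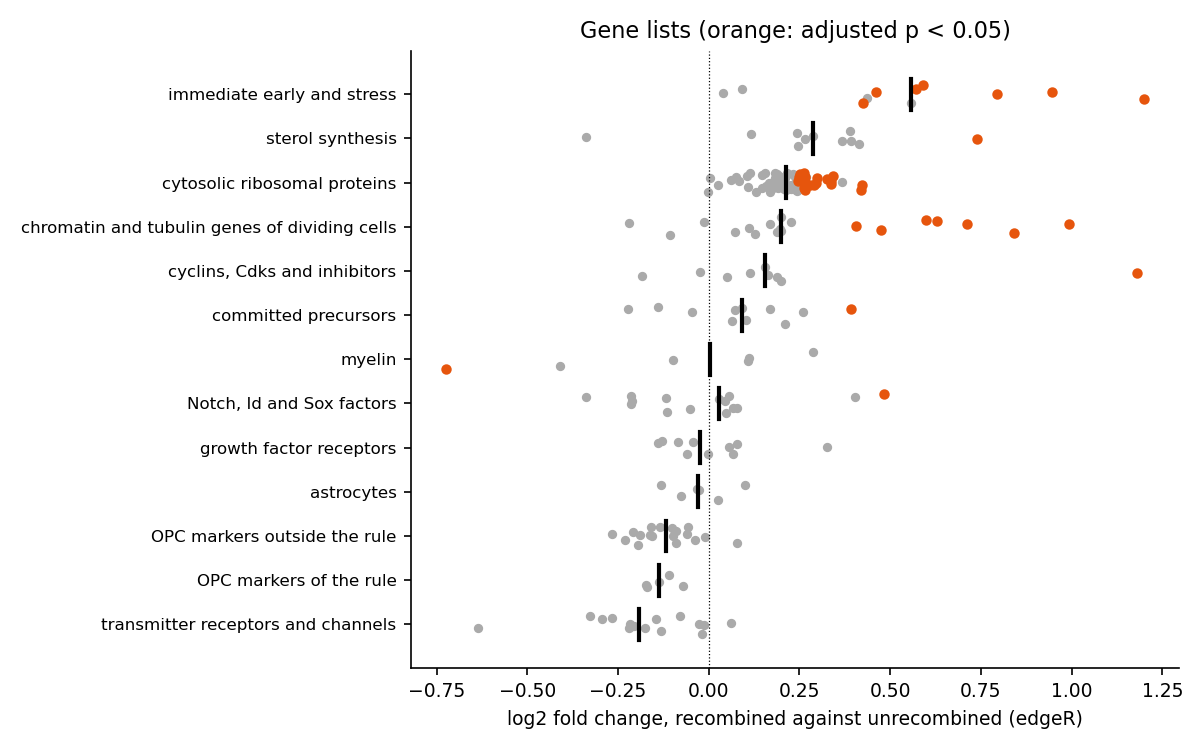
Log2 fold change (horizontal axis, recombined against unrecombined, edgeR) of each tested member of 13 gene lists; orange points passed an adjusted p under 0.05, grey points did not, and bars are medians. Immediate early genes have the highest median, 0.56, and transmitter receptors and channels the lowest, -0.19.

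Genes of translation formed a large group of small changes. Of 80 tested cytosolic ribosomal proteins, 24 were called higher and none lower, 79 estimates lay above 0 and the median log2 fold change was 0.21. The laminin receptor and ribosomal protein Rpsa and the ribosomal stalk protein Rplp0 were the largest, each at 0.42 (SE 0.07). Rplp0 was higher in 6 of 6 experiments, at 643 to 966 CPM with a median of 849 against 501 to 754 with a median of 603. Eef1a1, the elongation factor that delivers tRNA to the ribosome, was also higher in 6 of 6 (1050 to 1855 CPM against 876 to 1485, log2 fold change 0.38, SE 0.07, adjusted p = 0.000175). Most members of this family have processed pseudogenes, and how reads shared with them were counted affects their level.

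In sterol synthesis, which supplies the cholesterol of membranes and myelin, Hmgcs1 was called and 10 of 11 tested genes had estimates above 0 (median 0.29). Hmgcs1, an early enzyme of the pathway, was higher in 4 of 6 experiments (46.7, 95.8 and 138 CPM against 42.7, 58.7 and 72.2), with a log2 fold change of 0.74 (SE 0.13, adjusted p = 0.000267). Msmo1, a later enzyme, stood at 0.39 (SE 0.13, adjusted p = 0.162) and did not pass.

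The 5 precursor genes of the rule chose the cells of both groups, so their values are a description. Pdgfra ran from 926 over 1068 to 1472 CPM in recombined and from 1080 over 1181 to 1650 CPM in unrecombined cells. Of 18 precursor markers outside the rule none was called, 17 estimates lay below 0 and the median was -0.12, with Ptprz1, a receptor phosphatase, at -0.19 (adjusted p = 0.191) and the lineage transcription factor Olig2 at -0.16 (adjusted p = 0.348). Olig2 was detected in 97.9% of recombined cells. Of 16 tested transmitter receptors and channels, through which precursors sense neurons, none was called and 15 estimates lay below 0 (median -0.19), with the AMPA receptor subunit Gria2 at -0.22 (SE 0.07, adjusted p = 0.167) and lower in 6 of 6 experiments.

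Among 11 tested genes of committed precursors 1 was called, the kinase Fyn, which acts in the onset of myelination. Fyn ran from 80.4 over 245 to 586 CPM against 127 over 209 to 343 CPM, and was higher in 4 of 6 experiments (0.39, SE 0.10, adjusted p = 0.0322). Neu4 (-0.14, adjusted p = 0.560) and Cd9 (0.21, adjusted p = 0.159) did not pass. Of 6 tested myelin genes 1 was called lower, Ptgds, the prostaglandin D synthase of mature oligodendrocytes and meninges, at 32.7, 74.4 and 222 CPM against 56.3, 147 and 279 (-0.72, SE 0.13, lower in 5 of 6). Cnp (0.29, adjusted p = 0.170) did not pass. With the higher reporter limit, edgeR called Fyn (0.60, adjusted p = 0.000147), Cnp (0.65, adjusted p = 7.93e-06) and Cd9 (0.38, adjusted p = 0.0378) higher. With the limit on the intact locus they were called too (0.92, 0.85 and 0.44), and Neu4 was called in neither. With cells matched on total UMIs, Fyn, Cnp and Cd9 stood at 0.12, -0.03 and 0.07 and were not called.

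None of 10 tested growth factor receptors was called (median -0.02). Of all genes tested 1.31% were called, so a count of 0 or 1 in lists this short, here and above, says little about the list. Of 15 Notch, Id and Sox factors 1 was called, Sox11, a transcription factor of immature neural cells, at 0.48 (SE 0.12, adjusted p = 0.0146) but higher in only 3 of 6 experiments, while Sox2, Sox4 and Id2 lay between -0.05 and 0.04. Of 4 tested genes of intermediate progenitors and neuroblasts, Sox11 and the tubulin Tubb3 (0.49, SE 0.12) were called. No member of the tested genes of astrocytes (6), neural stem cells (3), antigen presentation and interferon (3), endothelium (1), microglia (1) or the mitochondrial genome (12) was called, no mural, fibroblast or ependymal gene was in enough cells to be tested, and of 3 neuron genes Meg3 was called lower.

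Of the 16 genes called lower, 10 were lower in 6 of 6 experiments, tdTomatoLoxP among them. Pcp4, a calmodulin regulator, fell from 271, 374 and 658 CPM (lowest, median and highest) in unrecombined to 194, 263 and 455 CPM in recombined cells (-0.51, SE 0.08, adjusted p = 4.04e-05). Tenm1, a teneurin adhesion protein, was detected in 27.3% of recombined and 41.8% of unrecombined cells (-0.79, SE 0.15, adjusted p = 0.00043). Fjx1, a Golgi kinase related to four-jointed of the fly, had the lowest fold change (-1.04, SE 0.22, adjusted p = 0.00403), from 38 UMIs in all recombined cells. Fjx1 passed the filter through the unrecombined group alone, detected in 21.2% of its cells against 12.4% of recombined cells. Fuca2, a fucosidase, was at -0.78 (SE 0.17). With cells matched on total UMIs, edgeR called Pcp4 (adjusted p = 0.00112) and Fjx1 (0.0392) but not Tenm1 (0.219) or Fuca2 (0.530). With the limit on the intact locus it called Fuca2 (adjusted p = 0.0139) but not Pcp4 (0.454), Tenm1 (0.313) or Fjx1 (0.534).

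The other 5 had smaller changes. They were the noncoding RNA Meg3 (-0.36), the protocadherin Pcdh15 (-0.35), the actin regulator Phactr3 (-0.36), Csmd1 (-0.37) and the lipoprotein receptor family member Lrp1b (-0.31). Each had an SE between 0.08 and 0.10, and Csmd1 and Lrp1b were each called in 1 of the 6 fits with an experiment left out. None of these 5 was called with cells matched on total UMIs or with the limit on the intact locus. Over all genes tested, 3.76% were lower and 2.26% higher in every experiment.

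In non-dividing precursors Junb, Fos, Tubb4b and Hmgcs1 were called and Hmgb2, Hmgn2, H2afx and Stmn1 were not; the difference between the fits was not tested. In the 5453 genes tested in non-dividing precursors, with cells holding 5 or more of the 49 cell cycle genes removed, 20 were called higher (0.367%) and 12 lower (0.22%), 0.587% in all, and 8.49% had an unadjusted p under 0.05. Cells were not thinned for this cut, so it depends on depth. It removed 381 of 1895 unrecombined cells in the third 6-8-month experiment and 9 of 410 in the third 2-month experiment. In the latter, 8 of 395 remaining unrecombined cells that could be thinned were still dividing by the thinned measure, against 0 of 45 recombined cells. The fit shares its samples with that of all cells, so the values stand side by side as descriptions. Junb stood at 1.28 (SE 0.11, adjusted p = 3.99e-15), Fos at 0.98 (SE 0.10), Dusp1 at 0.87 (SE 0.16), Jun at 0.56 (SE 0.08) and Hmgcs1 at 0.73 (SE 0.15), all called. Tubb4b (0.65, SE 0.10), Tubb5 (0.33, SE 0.08), Tuba1a (0.32, SE 0.07), Eef1a1 (0.31, SE 0.07) and Rpsa (0.34, SE 0.08) were called as well.

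Several chromatin genes did not pass in non-dividing cells. Hmgb2 stood at 0.24 (SE 0.15, adjusted p = 0.743), Hmgn2 at 0.11 (SE 0.10, adjusted p = 0.864), H2afx, a histone variant, at 0.26 (SE 0.15, adjusted p = 0.667) and Stmn1 at -0.25 (SE 0.14, adjusted p = 0.651). Of 80 ribosomal proteins 2 were called, Rpsa and Rpl29, with 79 estimates above 0 and a median of 0.16. Of the immediate early genes 6 of 11 were called, with a median of 0.49. The small GTPase Rhob (0.43), the chaperone Hspa8 (0.33) and Fabp7, a fatty acid binding protein of glial progenitors (0.27), were called higher, and eGFP stood at 0.30 (adjusted p = 0.0361). The genes called lower included tdTomatoLoxP (-0.86), Pcp4 (-0.57), Tenm1 (-0.70), Fuca2 (-0.77), Ptgds (-0.70), Meg3 (-0.37), Calb2 (-0.64) and Fam208a (-0.63).

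**Figure D5:**
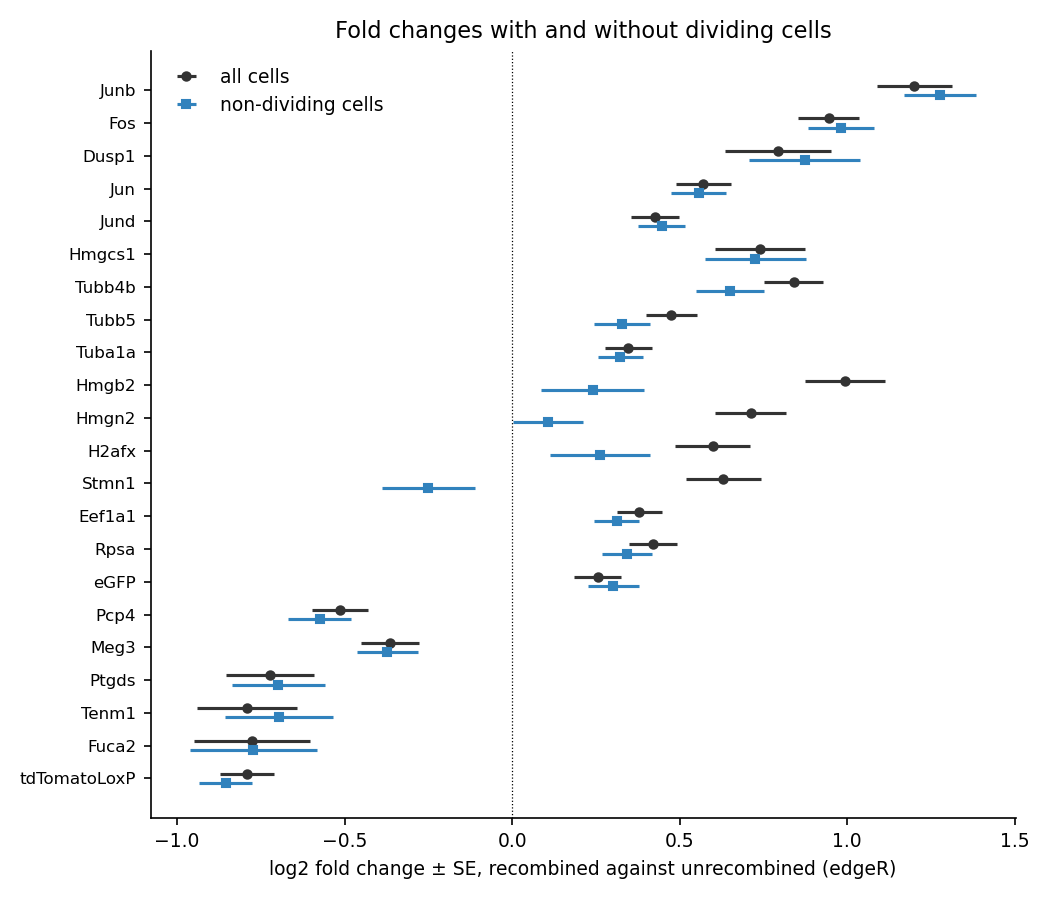
Log2 fold change with SE (horizontal axis, recombined against unrecombined, edgeR) of 22 genes in all precursors (black circles) and in non-dividing precursors (blue squares). Junb, Fos, Jun, Dusp1, Tubb4b and the intact reporter locus are called in both, whereas Hmgb2, Hmgn2, H2afx and Stmn1 lie within 0.26 of 0 in non-dividing cells.

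Markers of other cells moved with the groups in the first 2-month experiment. There, the 12 microglia genes summed to 2798 CPM in recombined and 37.2 CPM in unrecombined precursors, while in the other 5 experiments they lay between 11.7 and 50.1 CPM in recombined and between 40.7 and 68.6 CPM in unrecombined cells. The 10 mural cell genes summed to 2203 CPM against 37.2 CPM. In the library labelled GFP+tdT+ and GFP-tdT-, 3 of 16 recombined and 0 of 17 unrecombined precursors held at least 3 microglia genes, and in the other library 0 of 5 and 0 of 333 did. Of the 21 recombined cells in that experiment 16 came from the library labelled GFP+tdT+ and GFP-tdT-, whereas 333 of the 350 unrecombined ones came from the other, so library and group cannot be told apart in these sums. At 1 month and in the third 6-8-month experiment the mural sums were 392 against 45.1 and 198 against 117 CPM. The first 2-month experiment was also taken from the library labelled GFP+tdT+ and GFP-tdT- alone, a choice made after seeing the data. This gave 72 genes higher and 21 lower over all experiments, with Junb at 1.18 and Fos at 0.96. It kept the 3 recombined cells with at least 3 microglia genes, so it cannot show what those cells contribute. With the first 2-month experiment left out, 100 genes were called.

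The contrast differed between 6-8 and 2 months for 3 of 5718 genes (0.0525%, with 0.0175% higher and 0.035% lower at 6-8 months, and 5.16% at an unadjusted p under 0.05), by the interaction of group and age in edgeR. Of these, 2 are described. Cst3, a protease inhibitor abundant in microglia and astrocytes, had an interaction of -0.88 (SE 0.16, adjusted p = 0.000334), with 4486 CPM in recombined against 2001 CPM in unrecombined cells of the first 2-month experiment and 2089 against 1561 CPM in the third. Hmgb2 had one of 2.69 (SE 0.42, adjusted p = 4.23e-06), with recombined above unrecombined levels in all 3 experiments at 6-8 months (322 against 52.9, 328 against 144 and 417 against 158 CPM) and below them in both at 2 months (64.3 against 165 and 46.7 against 110 CPM). The 2-month recombined sums held 62193 and 85686 UMIs in all, so their Hmgb2 levels rest on few UMIs. At 6-8 months the first experiment had 11 recombined cells, and in the third 1 cell held most of the Hmgb2 UMIs. Age and chemistry cannot be told apart in this contrast. Without the first 2-month experiment no interaction was called, and without the third 6 were. Fos (interaction not called) was higher in recombined cells at each age, at 200.3 against 170 CPM at 1 month, where both groups were close.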

How the data were processed

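UMI counts per gene and barcode were used as deposited by the authors, who mapped 10x 3′ libraries with Cell Ranger 3.0.2 to mm10 with 4 reporter elements added (cutadapt 1.18 is also named in the submitters' processing notes). No normalization had been applied. Reporter elements were left out of library sizes.

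Precursors were taken by the rule stated above, with no clustering and no doublet caller. Counts were summed per experiment and group (2 libraries of 1 experiment together, experiments with at least 5 cells a side), and fitted with edgeR 4.0.16 (quasi-likelihood, total-UMI scaling, experiment as block, a UMI in 20% of the cells of either group, Benjamini-Hochberg at 0.05). Alternatives were TMM, DESeq2 1.42.0, other filters and cell limits, no block, and each experiment left out. Single values used exact two-sided sign-flip tests. Pairing comes from shared mice. On simulated counts of the main comparison (5718 genes), 99.8% of genes changed by a log2 fold of 2 and 70.3% of those changed by 1 were recovered. These draws gave every gene a dispersion of 0.05 and each changed gene the same change in every experiment. Recovery in the real sums may be lower where genes vary more. For the age interaction 31.3% of changes of 2 were recovered, so few calls there show little. Summed depth ran from 62193 to 15423942 UMIs per group and experiment, which sets how low a level can be compared.

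The members and gene lists were chosen with earlier results of these data known. Genes were named by lowest adjusted p with 1 direction in all experiments (12 a side, 10 for non-dividing cells), plus called and most abundant list members. Some items are not reported here.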

Additional observations from a re-analysis of the deposited data

Results flagged for a closer look

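In the first 6-8-month experiment, which had 11 recombined precursors, the difference in genes per cell was -12, far from the nearest other experiment at -3. The difference in the share of dividing cells was 7.24 percentage points there, against -0.32 in the nearest, and rests on 1 dividing cell. Chance marks about 1 in 20 such groups, and 30 series were examined.

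The contrast differed between 6-8 and 2 months for Cst3 (interaction -0.88) and Hmgb2 (2.69), by edgeR's test of the interaction. Cst3 was high in recombined cells of the first 2-month experiment (4486 CPM), where microglia genes summed to 2798 CPM. Their part in the result was not tested. The recombined Hmgb2 levels at 2 months rest on few UMIs, and age and chemistry cannot be told apart in this contrast.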

How the results depend on the processing

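The count of 75 genes became 174 with no filter beyond 10 UMIs, 10 with cells matched on total UMIs, 34 with a higher reporter limit (4 experiments), 27 with the limit on the intact locus, 45 with no exclusion gene detected and 9 of 803 with cells thinned to 1000 UMIs (chosen after seeing the data). Leaving out an experiment gave 30 (without the third at 6-8 months) to 100 (without the first at 2 months), with 42 without the 1-month, 46 without the first and 39 without the second 6-8-month experiment. DESeq2 called 81, of which 43 were shared, and gave an adjusted p to 508 genes. Without the replicate block, which stands for the pairing of cells from the same mice, 0 were called in edgeR for all cells (74 at an unadjusted p under 0.05) and 0 for non-dividing cells (61). The 32 calls in non-dividing cells became 10 when matched, 15 with cells dividing at 3 of 49 genes, and 21 to 33 with an experiment left out (21 without the second or the third at 6-8 months). The 3 interactions became 0 to 6 with an experiment left out. The cause was not tested.

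With the limit on the intact locus, which selects recombined cells alone and leaves none dividing by the thinned measure, the difference in log2 total UMIs was -0.077 and that of eGFP -0.17 (-0.24 in edgeR), and Hmgb2 (-1.08), Stmn1 (-1.25), H2afz (-0.55), Hmgn2 (-0.17), H2afx (-0.17) and Ier2 (-0.070) turned negative. Hmgb2 (-0.064) and Stmn1 (-0.13) did so with the higher reporter limit, and Stmn1 (-0.23) with no exclusion gene. Genes per cell differed by 54 unthinned and by -2.6 to 0.2 with an experiment left out. The share of dividing cells differed by 0.27 points unthinned, 0.22 with WPRE alone, 0.18 with the first 2-month experiment from 1 library (chosen after seeing the data), and -1.81 to 0.33 with an experiment left out. Sign changes of estimates called in neither fit were not counted. The mean difference of the intact locus was below 0 in the alternatives run, with the first 2-month experiment reversed when taken from 1 library. Recombined cells numbered 11 to 113 per experiment, which limits what low genes can show.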
